A study of Mus musculus with 2 samples.

Results

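Mouse erythroid progenitors were examined for 10 genes: 4 cyclin-dependent kinases (Cdk1, Cdk2, Cdk4, Cdk6), 3 inhibitors of the CIP/KIP family (Cdkn1a, Cdkn1b, Cdkn1c, encoding p21, p27 and p57) and 3 of the INK4 family (Cdkn2a, Cdkn2c, Cdkn2d). The members are a list of named genes, found by their Ensembl identifiers through GENCODE M21 names. All 10 were present, out of 43346 Ensembl gene rows. The study sequenced total RNA, depleted of ribosomal RNA, from CFU-E cells (colony-forming unit erythroid, a progenitor already committed to red cells) of male C57BL/6J mice aged 5 to 6 weeks. There was 1 group of 2 libraries, labelled biological replicates 1 and 2, each made from 100 ng of RNA with a ScriptSeq kit. The labels give them separate biosamples under a single donor entry, no treatment and no genetic change, and do not say how many animals that entry covers.

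Cyclin-dependent kinases drive the cell cycle when bound by a cyclin: Cdk4 and Cdk6 pair with D cyclins and phosphorylate the retinoblastoma protein in G1, Cdk2 pairs with E and A cyclins around S phase, and Cdk1 pairs with A and B cyclins to drive mitosis. INK4 proteins bind Cdk4 and Cdk6 and keep D cyclins off them, whereas CIP/KIP proteins bind cyclin-Cdk complexes and act mainly on Cdk2. Erythroid progenitors divide quickly at the CFU-E stage and leave the cycle during terminal maturation, and p27 and the INK4 protein p18, the product of Cdkn2c, are known for a part in that exit.

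Expected counts (reads assigned to a gene by the authors' quantification, not always whole) totalled 62576357 in replicate 1 and 36889517 in replicate 2. Levels are given as TPM, the share of transcripts after correction for length, scaled to a fixed total in each library. The share of nuclear protein-coding genes in TPM was 12.4% in replicate 1 and 7.49% in replicate 2, so a TPM was generally higher in replicate 1: the median log2 ratio of TPM, replicate 1 over replicate 2, was 0.66 over the 10403 genes whose counts averaged 50 or more. Of 10 erythroid markers, 9 reached 1 TPM in each library, including Hbb-bt at 3305 and 1734 TPM and Hba-a1 at 1638 and 757.7 TPM. The 1 that did not was Kit, a receptor that marks CFU-E, at 0.42 and 0.51 TPM, and Slc4a1, which encodes a membrane protein of more mature red cells, stood at 692.7 and 422.9 TPM; both are named after their values were seen. The list thus shows erythroid RNA. Kit, from 345 and 328 counts, was low for the labelled stage, which 1 marker cannot settle. With TPM set relative to the sum of nuclear protein-coding genes, Kit stood at 3.38 and 6.81, and all 10 markers reached 1 in each library. Granulocyte markers were also present, 7 of 7 reaching 1 TPM and summing to 1190 and 599.4 TPM, led by S100a8 at 556.8 and 252.6 TPM and S100a9 at 275.0 and 175.2 TPM. The summed levels of the other lists in replicates 1 and 2 were 128.7 and 79.0 TPM for monocytes and macrophages (led by Lyz2 and Vcam1), 36.2 and 18.9 for B cells (Ighm and Cd79b), 12.6 and 4.25 for megakaryocytes (Itga2b and Vwf), 17.0 and 9.86 for mast cells and basophils (Mcpt8 and Prss34), 4.25 and 2.34 for T and NK cells (Cd3g and Nkg7) and 2.90 and 0.76 for stem and early progenitor cells (Erg and Cd34). No marker of any list had 0 counts in both libraries. The share of the members' RNA that came from such cells was not tested, and in bulk RNA fewer cells of a type and less RNA per cell cannot be told apart.

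Of the 10 genes, 6 reached 1 TPM in each library, against 23.9% of 21461 nuclear protein-coding genes. Those that reached 10 TPM in each library were 3, Cdk1, Cdkn2c and Cdkn2d, against 4.79%. At the other end, Cdkn1c and Cdkn2a had 0 counts in both libraries, as did 42.8% of nuclear protein-coding genes. No test was run on these levels, because 1 group of 2 libraries offers no comparison between groups. An SD over 2 libraries, given below, holds the shift of the TPM scale as well as any difference between the samples.

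**Figure D1:**
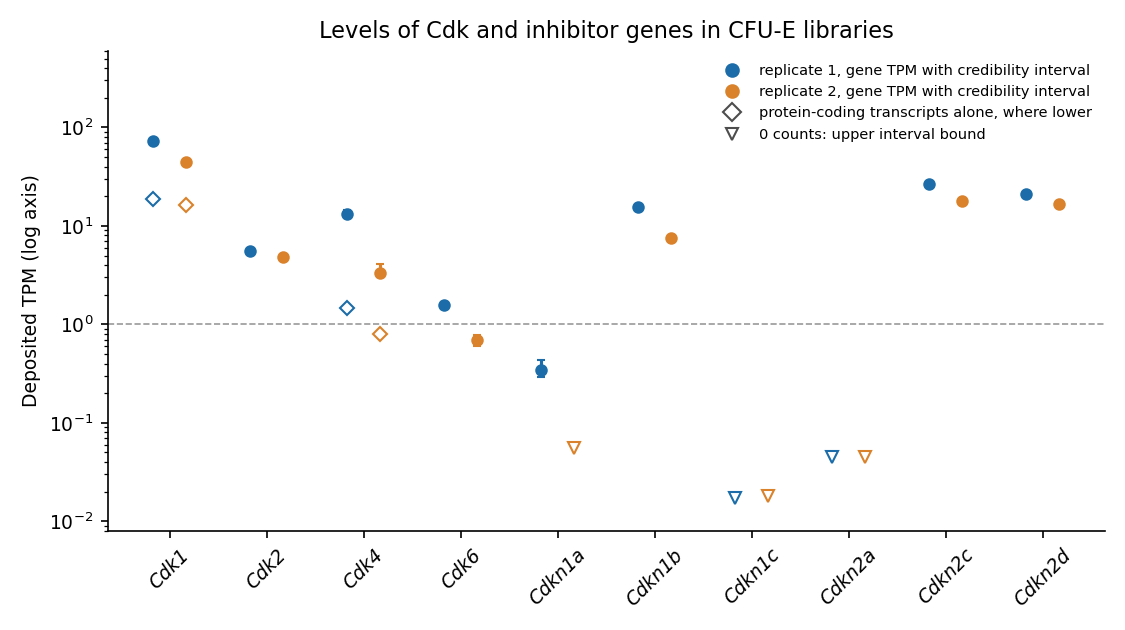
Level of each gene in deposited TPM on a log axis, with filled points for the gene TPM in replicates 1 and 2 and bars for the deposited credibility interval, open diamonds for protein-coding transcripts alone where these are lower, and open triangles for the upper interval bound of genes with 0 counts. Cdk1 is highest by gene TPM at 72.9 and 44.5, but its diamonds, at 18.8 and 16.1, lie below the points of Cdkn2c in both libraries.

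The mitotic kinase gene Cdk1 (ENSMUSG00000019942, chr10:69335146-69352938, minus strand) had the highest gene TPM of the 10, 72.9 in replicate 1 and 44.5 in replicate 2 (58.7 ± 20.1, SD, n = 2), from 7230 and 5630 counts. It lay at percentile 99.2 and 99.1 of nuclear protein-coding genes. Most of that TPM was assigned to a short transcript that the annotation classes as a retained intron and that codes for no protein. This transcript, Cdk1-204, had 53.7 and 27.9 TPM in replicates 1 and 2, or 73.7% and 62.8% of the gene's TPM. It held fewer of the reads: all retained-intron transcripts of Cdk1 together took 31.1% and 22.6% of the gene's counts, but 74.2% and 63.7% of its TPM. The protein-coding transcripts of Cdk1 summed to 18.8 and 16.1 TPM (17.5 ± 1.86, SD, n = 2).

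The G1 kinase gene Cdk4 (ENSMUSG00000006728, chr10:127063534-127067920, plus strand) showed the same division. Its gene TPM was 13.2 in replicate 1 and 3.35 in replicate 2 (8.28 ± 6.97, SD, n = 2), from 1062 and 447 counts, the widest relative spread among the members with counts in both libraries. Retained-intron transcripts took 73.7% and 74.6% of its TPM, and 36.9% and 48.6% of its counts. In replicate 1 they were all Cdk4-209, at 9.74 TPM. In replicate 2 Cdk4-209 was at 1.63 TPM and Cdk4-207, Cdk4-203 and Cdk4-206 at 0.39, 0.32 and 0.15 TPM. A transcript classed for nonsense-mediated decay, Cdk4-208, took 1.99 TPM in replicate 1 and 0.06 in replicate 2. The full-length coding transcript Cdk4-201 was left with 1.48 and 0.79 TPM (1.14 ± 0.49, SD, n = 2), from 443 and 223 counts.

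Only short stretches set these transcripts apart from the coding ones. Cdk1-204 is 475 bases long and shares 419 of them with Cdk1-201; the other 56 (chr10:69345005-69345060) follow exon 4 into the intron. Cdk4-209 is 468 bases long and shares 443 with Cdk4-201; the other 25 (chr10:127066076-127066100) precede an exon. Both stretches are shown because the levels of Cdk1 and Cdk4 turn on reads given to these transcripts. They are from GENCODE M21 transcripts on GRCm38, in the transcript's own strand, with the intronic bases in capitals and 24 exonic bases beside them in lower case.
Cdk1-204, minus strand: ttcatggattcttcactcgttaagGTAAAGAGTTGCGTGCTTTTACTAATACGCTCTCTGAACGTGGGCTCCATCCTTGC
Cdk4-209, plus strand: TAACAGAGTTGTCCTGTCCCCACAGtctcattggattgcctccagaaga

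Retained-intron transcripts that outweigh the rest were not usual. Of 2481 nuclear protein-coding genes that had such a transcript and reached 1 TPM in each library, 222 (8.95%) had over 50% of their TPM there in both. Cdk1 and Cdk4 were 2 of them, and none of the transcripts of the other members in the deposited tables is of that class. The number of genes depended on the limit: it was 395 at 40% and 115 at 60%. What set these shares was not tested. Where a level or a ratio within a library rests on Cdk1 or Cdk4 below, it is therefore given for all transcripts and for protein-coding transcripts alone, a choice made after the values were seen.

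**Figure D2:**
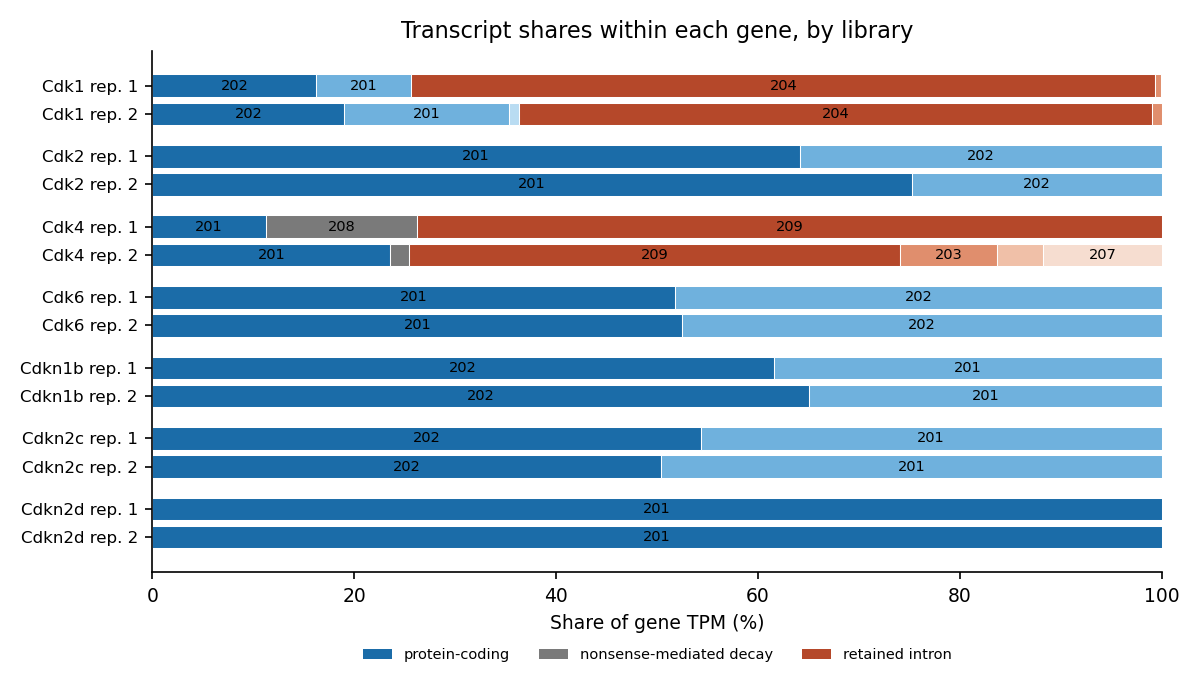
Share of each gene's TPM taken by each of its transcripts in replicates 1 and 2, with blue for protein-coding, grey for nonsense-mediated decay and red for retained-intron transcripts; the numbers drawn are transcript suffixes. Red takes over 60% of Cdk1 and over 70% of Cdk4 in both libraries, and the other 5 genes are blue throughout.

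The S-phase kinase gene Cdk2 (ENSMUSG00000025358, chr10:128697939-128705031, minus strand) had 5.54 and 4.83 TPM in replicates 1 and 2 (5.19 ± 0.50, SD, n = 2), from 1917 and 1561 counts. The libraries differed less for Cdk2 than the general shift of the TPM scale. It was read as 2 protein-coding transcripts. The shorter, Cdk2-201, was the larger part, with 64.1% and 75.2% of TPM in replicates 1 and 2. The longer, Cdk2-202, took 35.9% and 24.8%, at 1.99 and 1.20 TPM. It carries an additional exon 6 of 144 bases (chr10:128699976-128700119), which adds 48 codons to the kinase. That exon, from the same GENCODE transcripts, is in capitals between 24 bases of each neighbouring exon, and is shown because it is the coding difference between the 2 forms.
Cdk2-202 exon 6, minus strand: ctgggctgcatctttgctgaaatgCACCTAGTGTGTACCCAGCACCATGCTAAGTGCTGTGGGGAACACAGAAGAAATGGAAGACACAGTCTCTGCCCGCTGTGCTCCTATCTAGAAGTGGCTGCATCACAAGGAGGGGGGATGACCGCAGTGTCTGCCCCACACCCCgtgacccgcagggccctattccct

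Cdk6 (ENSMUSG00000040274, chr5:3341485-3531008, plus strand), the second partner of D cyclins, was the lowest kinase by gene TPM. It had 1.56 and 0.69 TPM in replicates 1 and 2 (1.13 ± 0.62, SD, n = 2), from 730 and 300 counts, and so reached 1 TPM in replicate 1 alone. Its 2 coding transcripts were about even, Cdk6-201 with 51.8% and 52.5% of TPM and Cdk6-202 with 48.2% and 47.5%. By gene TPM, Cdk4 was 8.46-fold above Cdk6 in replicate 1 and 4.86-fold in replicate 2. On protein-coding transcripts the ratios were 0.95 and 1.14 (log2 0.06 ± 0.19, SD, n = 2). With all counts divided by the effective length of 1 coding transcript per gene, also a choice made after the values were seen, Cdk4 was 2.79-fold and 2.83-fold above Cdk6 (log2 1.49 ± 0.01, SD, n = 2), so the size of the gap depended on which of these was used.

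The order of the kinases thus depended on which transcripts were counted. Cdk1 exceeded Cdk2 by 13.2-fold in replicate 1 and 9.20-fold in replicate 2 by gene TPM. On coding transcripts it exceeded Cdk2 by 3.39-fold and 3.34-fold (log2 1.75 ± 0.01, SD, n = 2). Cdk2 and Cdk4 changed places between the libraries by gene TPM: Cdk2 was at 0.42 of Cdk4 in replicate 1 and 1.44 times Cdk4 in replicate 2. On coding transcripts Cdk2 was above Cdk4 in both, by 3.74-fold and 6.11-fold, and by the effective length of 1 coding transcript by 1.60-fold and 3.10-fold.

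Among the CIP/KIP genes only Cdkn1b (p27; ENSMUSG00000003031, chr6:134920401-134925513, plus strand) reached 1 TPM in either library. Its level was 15.7 and 7.51 TPM in replicates 1 and 2 (11.6 ± 5.80, SD, n = 2), from 8985 and 4097 counts. Of its 2 transcripts, Cdkn1b-202 took 61.5% and 65.1% of TPM in replicates 1 and 2, and Cdkn1b-201 took 38.5% and 34.9%. Both encode the same reading frame, and Cdkn1b-202 keeps 2159 bases of the 3′ untranslated region that are spliced out of Cdkn1b-201. The larger part of p27 transcripts was thus assigned to the unspliced 3′ end in both libraries.

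Cdkn1a (p21; ENSMUSG00000023067, chr17:29090976-29100727, plus strand), a target of p53, had 94 counts and 0.34 TPM in replicate 1 and 0 counts in replicate 2. At the rate of replicate 1, scaled for library size, 57.9 counts would have been read in replicate 2. With a floor of 3 counts in replicate 2 and the 94 counts of replicate 1 taken as exact, Cdkn1a was 19.3-fold higher in replicate 1. That value is not a lower bound, because the 94 counts have counting error too. The interval of counting error for Cdkn1a began at a log2 ratio of 3.94, a smaller difference, and it covers counting error only. Of 2265 nuclear protein-coding genes with 47 to 188 counts in replicate 1, 194 (8.57%) likewise had 0 in replicate 2. In replicate 1, where both were read, Cdkn1b exceeded Cdkn1a 46.2-fold by TPM. Cdkn1c (p57; ENSMUSG00000037664, chr7:143458339-143461050, minus strand), an imprinted gene known in quiescent stem cells, had 0 counts in both libraries. A count of 0 allows up to 0.048 CPM (counts scaled to the library total) in replicate 1 and 0.081 in replicate 2, which covers counting error only.

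Of the INK4 genes, 2 were among the highest of the 10. Cdkn2c (p18; ENSMUSG00000028551, chr4:109660876-109667189, minus strand) had 26.3 and 17.7 TPM in replicates 1 and 2 (22.0 ± 6.07, SD, n = 2), from 6987 and 4310 counts. Cdkn2d (p19; ENSMUSG00000096472, chr9:21288410-21291407, minus strand) stood at 21.2 and 16.6 TPM (18.9 ± 3.22, SD, n = 2), from 3628 and 2731 counts. Their credibility intervals were apart in replicate 1 and overlapped in replicate 2, so their order was not settled in both libraries. Divided by the effective length of 1 coding transcript each, the order turned, with Cdkn2c at 0.90 of Cdkn2d in replicate 1 and 0.75 in replicate 2. Cdkn2a (ENSMUSG00000044303, chr4:89274471-89294653, minus strand), which encodes p16 and the p53 activator Arf from separate first exons, had 0 counts in both libraries. Its neighbour Cdkn2b, encoding p15, also had 0.

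Reads of Cdkn2c were assigned to transcripts from both of its annotated start sites, though use of the starts was not measured. Cdkn2c-202, which begins at the outer start and has 3 exons, took 54.3% and 50.4% of TPM in replicates 1 and 2. Cdkn2c-201, which begins inside the gene and has 2 exons, took 45.7% and 49.6%, at 12.0 and 8.78 TPM. The 2 transcripts share 891 bases, and 215 bases of Cdkn2c-201 and 1580 of Cdkn2c-202 are their own. By counts the shorter form held less, 24.8% and 28.4%. Cdkn2d has 1 transcript in the tables.

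Summed by family, INK4 genes had 47.5 and 34.3 TPM in replicates 1 and 2, and CIP/KIP genes at 16.1 and 7.51. INK4 was above CIP/KIP by 2.96-fold and 4.57-fold (log2 1.88 ± 0.44, SD, n = 2), a difference larger than its spread and the same on coding transcripts. Cdk4 and Cdk6 together, the kinases that INK4 proteins bind, stood at 14.8 and 4.04 TPM. INK4 was above them by 3.22-fold in replicate 1 and 8.50-fold in replicate 2 (log2 of Cdk4 + Cdk6 over INK4, -2.39 ± 0.99, SD, n = 2). On coding transcripts, where Cdk4 and Cdk6 summed to 3.04 and 1.48 TPM, INK4 was above by 15.6-fold and 23.2-fold (log2 -4.25 ± 0.40, SD, n = 2), and by the effective length of 1 coding transcript by 8.33-fold and 13.6-fold. Cdk1 and Cdk2 together exceeded CIP/KIP by 4.89-fold and 6.56-fold (log2 2.50 ± 0.30, SD, n = 2), and on coding transcripts by 1.51-fold and 2.79-fold (log2 1.04 ± 0.62, SD, n = 2). These are ratios of RNA levels, and protein was not measured.

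**Figure D3:**
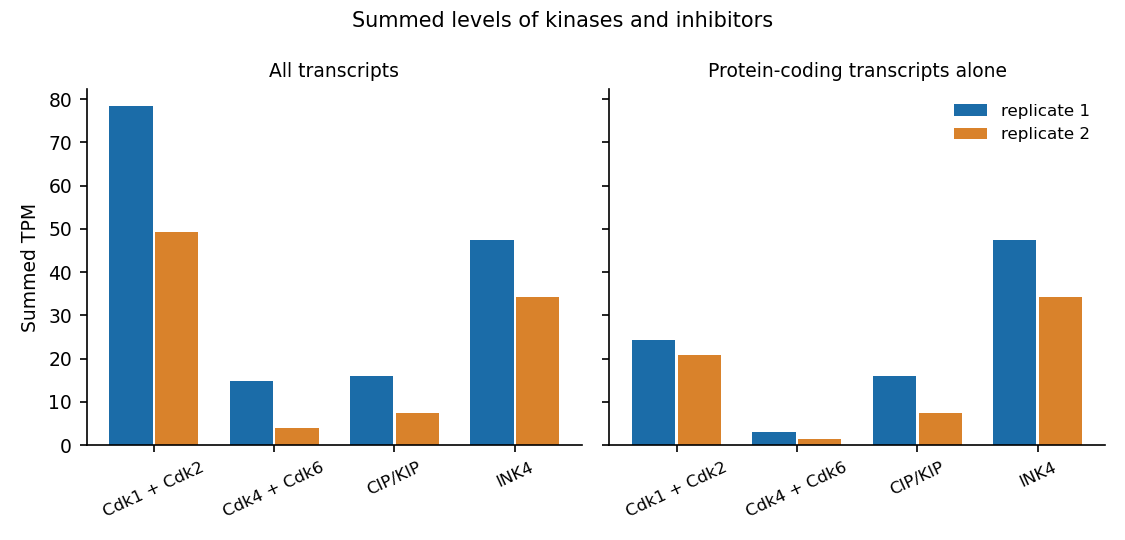
Summed TPM of Cdk1 and Cdk2, of Cdk4 and Cdk6, of the 3 CIP/KIP genes and of the 3 INK4 genes in replicates 1 and 2, for all transcripts (left) and for protein-coding transcripts alone (right). The INK4 bars stay at 47.5 and 34.3 on both sides, while those of Cdk4 and Cdk6 go from 14.8 and 4.04 to 3.04 and 1.48.

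Read from the top by gene TPM, the order in replicate 1 was Cdk1, Cdkn2c, Cdkn2d, Cdkn1b, Cdk4, Cdk2, Cdk6 and Cdkn1a, each clear of the next by its credibility interval. Replicate 2 gave the same order except that Cdk2 stood above Cdk4, and that Cdkn2c and Cdkn2d overlapped. On coding transcripts Cdkn2c and Cdkn2d stood above Cdk1 in both libraries, 26.3 and 21.2 TPM against 18.8 in replicate 1, and 17.7 and 16.6 against 16.1 in replicate 2. In replicate 2 the value of Cdk1 lay within the credibility interval of Cdkn2d, 15.8 to 17.1 TPM, so these were not apart. By the effective length of 1 coding transcript, Cdk1 was below both in replicate 1, at 16.6 TPM against 19.0 for Cdkn2c and 21.2 for Cdkn2d, and in replicate 2 it was above Cdkn2c, 13.8 against 12.5, and below Cdkn2d at 16.6. On coding transcripts 5 of the 10 reached 1 TPM in each library, against 20.8% of nuclear protein-coding genes, since Cdk4 fell below 1 TPM in replicate 2. By the effective length of 1 coding transcript 6 did, with Cdk4 at 1.58 TPM in replicate 2.

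Between the replicates, 7 of the 10 genes had counts that averaged 50 or more and could be compared. Counts were scaled by TMM (trimmed mean of M values), which brings the median log2 ratio over the same 10403 genes to 0.03. None of the 7 was 2-fold apart, whereas 21.1% of the 10403 genes were, 10.7% with the higher value in replicate 1 and 10.3% with it in replicate 2. That share was lower among genes of higher count: among those whose mean count was within 2-fold of the member's own, the share 2-fold apart was 1.84% to 3.08% for 5 of the 7, 8.92% for Cdk4 and 14.1% for Cdk6, so 0 of 7 says little about the members. Cdk6, Cdk4 and Cdkn1b were higher in replicate 1, with log2 ratios of 0.58, 0.55 and 0.43. Cdk2, Cdk1 and Cdkn2d were higher in replicate 2, with -0.40, -0.34 and -0.29, and Cdkn2c was level at -0.00. Each of the 7 was below the 90th percentile of the absolute log2 ratio among genes whose mean count was within 2-fold of its own, which ran from 0.47 for Cdk1 and Cdkn1b to 1.14 for Cdk6. Cdkn1b came nearest to that mark, at 0.43 against 0.47. All of the 7 but Cdkn2c were above the median of the same genes, which ran from 0.17 for Cdkn1b to 0.43 for Cdk6. Cdk1 and Cdk2, higher in replicate 2 by scaled counts, were higher in replicate 1 by deposited TPM, as were Cdkn2d and Cdkn2c, in the direction of the general shift of 0.66. By deposited TPM the log2 ratios of Cdk4, Cdk6 and Cdkn1b passed 2-fold, at 1.98, 1.18 and 1.06. Once TPM was set relative to the sum of nuclear protein-coding genes, only that of Cdk4 did, at 1.25, and the retained-intron and decay transcripts described above enter that value. With 1 library on each side these ratios carry no test.

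**Figure D4:**
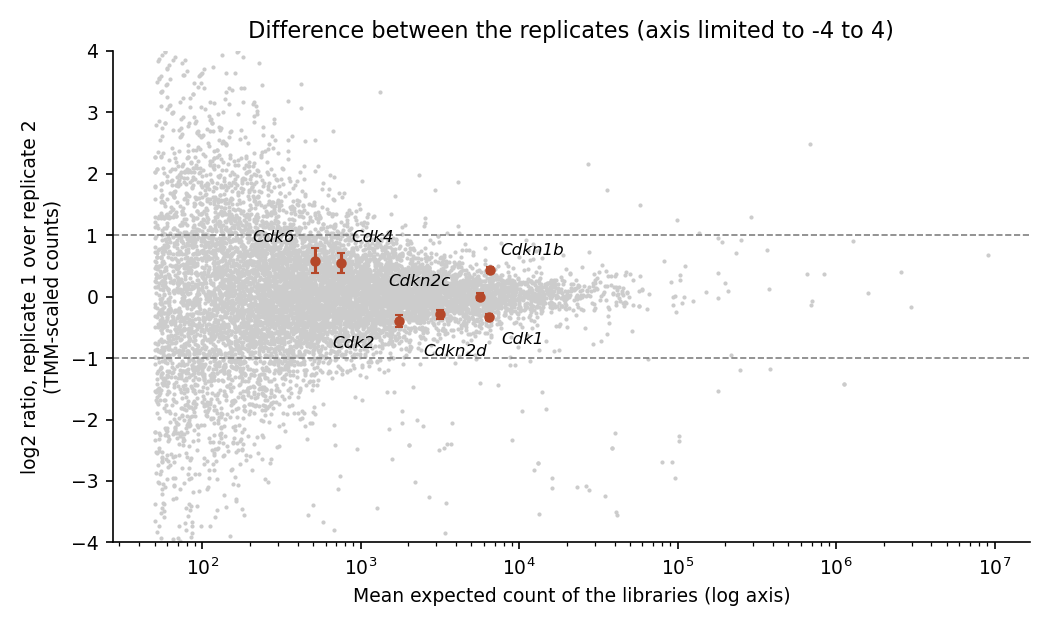
Log2 ratio of replicate 1 over replicate 2 from TMM-scaled counts against mean expected count on a log axis, with a grey point for each gene whose counts averaged 50 or more and red points for the members, whose bars are 95% intervals of counting error; dashed lines mark 2-fold. All 7 red points lie between the lines, from -0.40 for Cdk2 to 0.58 for Cdk6.

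Genes on the opposite strand overlap some members, and the tables do not state whether counting used strand. Pmel, which overlaps 837 bases of Cdk2, had 0 and 9 counts. Tspan31, which overlaps 641 bases of Cdk4, had 148 and 138 counts against 1062 and 447 for Cdk4, so the level of Cdk4 has this further uncertainty.

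Upstream sequence was examined for the members. The window was the 150 bases before the start site in RefSeq's promoter table on GRCm38.p6, where 9 of the 10 members had an entry, Cdkn1c being the one without. Short motifs of 5 kinds known from cell-cycle or erythroid promoters were searched on both strands: the cell-cycle homology region CHR (TTTGAA or TTTAAA), an E2F site (TTTCCCGC, TTTCGCGC, TTTGCCGC or TTTGGCGC), the CCAAT box, the E-box CACGTG bound by Myc, and a GATA site (GATA after an A or a T and before an A or a G). No word of 1 motif holds a word of another. Over 32544 promoters of the same length, 14.6% held a CHR, 1.25% the E2F site, 24.4% a CCAAT box, 4.30% the E-box and 15.9% a GATA site. The windows of Cdk1, Cdk2, Cdk4, Cdkn1b and the inner start of Cdkn2c are shown. These starts are annotated for genes whose transcripts are described above, and at most 30 bases of each window lie in exons of the gene. Windows of Cdk6, Cdkn2d and the outer Cdkn2c start exceed that limit and are not shown. Matches are in capitals, 5′ to 3′ in the direction of the gene. The last 26 bases of the Cdk1 window lie in the first exon of Cdk1-201.
Cdk1, chr10:69352913-69353062, minus strand: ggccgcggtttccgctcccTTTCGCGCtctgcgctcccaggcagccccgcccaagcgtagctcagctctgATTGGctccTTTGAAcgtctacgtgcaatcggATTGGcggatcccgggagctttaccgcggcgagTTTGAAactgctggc
Cdk2, chr10:128705052-128705201, minus strand: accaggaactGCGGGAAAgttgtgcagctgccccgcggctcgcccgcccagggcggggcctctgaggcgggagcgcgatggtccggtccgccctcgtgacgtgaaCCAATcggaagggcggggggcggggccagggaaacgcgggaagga
Cdk4, chr10:127063385-127063534, plus strand: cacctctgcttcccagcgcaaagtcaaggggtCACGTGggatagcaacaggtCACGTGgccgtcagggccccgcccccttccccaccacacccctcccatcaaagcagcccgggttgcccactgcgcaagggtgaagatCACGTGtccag
Cdkn1b, chr6:134920251-134920400, plus strand: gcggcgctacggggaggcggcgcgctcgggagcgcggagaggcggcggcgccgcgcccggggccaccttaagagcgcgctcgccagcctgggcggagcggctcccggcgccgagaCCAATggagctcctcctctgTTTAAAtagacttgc
Cdkn2c, inner start, chr4:109665373-109665522, minus strand: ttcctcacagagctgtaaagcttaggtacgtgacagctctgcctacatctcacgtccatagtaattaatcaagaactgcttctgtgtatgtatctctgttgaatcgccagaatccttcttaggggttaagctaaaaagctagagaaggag

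The Cdk1 window held 1 E2F match, 2 CCAAT boxes, both read as ATTGG on the strand shown, and 2 CHR matches, 71 and 15 bases before the start. Cdk2 had 1 E2F match, as GCGGGAAA on the strand shown, and 1 CCAAT box. Cdk4 had 3 E-boxes, 118, 98 and 11 bases before the start, and no match of the other kinds. Cdkn1b had a CCAAT box 35 bases and a TTTAAA 15 bases before the start. The inner Cdkn2c window had no match, and at 42.7% GC and 3 CpG it lay below the median of all promoters, 54.0% and 4, while the other 4 windows had 63.3% to 74.0% GC. Of the windows not shown, that of the outer Cdkn2a start, which had 0 counts, held 1 E2F match, and the others, of Cdk6, Cdkn1a, Cdkn2d, the inner Cdkn2a start and the outer Cdkn2c start, held none. All 150 bases of the Cdkn2d and outer Cdkn2c windows lie in annotated exons of those genes, as do 46 of Cdk6 and 34 of outer Cdkn2a. The outer Cdkn2c window lies inside Cdkn2c-202, not upstream of it. In these windows a match or its absence does not describe upstream sequence alone. No member window held a GATA match. A match describes the letters alone, and binding was not measured.

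Other genes that act with or on these kinases were read from lists by role. Of 97 such genes found, 63 reached 1 TPM in each library, against the 23.9% given above. Among 10 cyclins, 6 reached 1 TPM in both, and the same 6 reached 10 TPM, against 4.79% of nuclear protein-coding genes. By gene TPM the A cyclin Ccna2 was highest, at 92.8 and 73.7 TPM in replicates 1 and 2. The B cyclins Ccnb1, at 67.4 and 53.2, and Ccnb2, at 33.7 and 28.8, followed. On coding transcripts Ccnb1 was at 37.4 and 25.1 TPM, above Ccnb2 in replicate 1 and below it in replicate 2. Of the D cyclins, which bind Cdk4 and Cdk6, Ccnd3 stood at 24.2 and 17.4 TPM, Ccnd2 at 0.76 and 0.33 and Ccnd1 at 0.23 and 0.10. Ccnd3 thus exceeded Ccnd2 by 31.9-fold and 52.7-fold, and it exceeded its partner Cdk4 in both libraries by gene TPM and, at 20.9 and 14.6 TPM, on coding transcripts. The E cyclins Ccne1, at 24.2 and 14.8 TPM, and Ccne2, at 16.6 and 10.6, were both above Cdk2, as was Ccna2, by 16.8-fold and 15.3-fold (log2 4.00 ± 0.10, SD, n = 2). On coding transcripts Ccna2 was above Cdk2 by 15.4-fold and 8.99-fold (log2 3.56 ± 0.55, SD, n = 2). Ccnb1 and Cdk1 were close by gene TPM (log2 0.07 ± 0.26, SD, n = 2), and on coding transcripts Ccnb1 was above Cdk1 by 1.99-fold and 1.56-fold. Ccna1 and Ccnb3 had 0 counts.

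**Figure D5:**
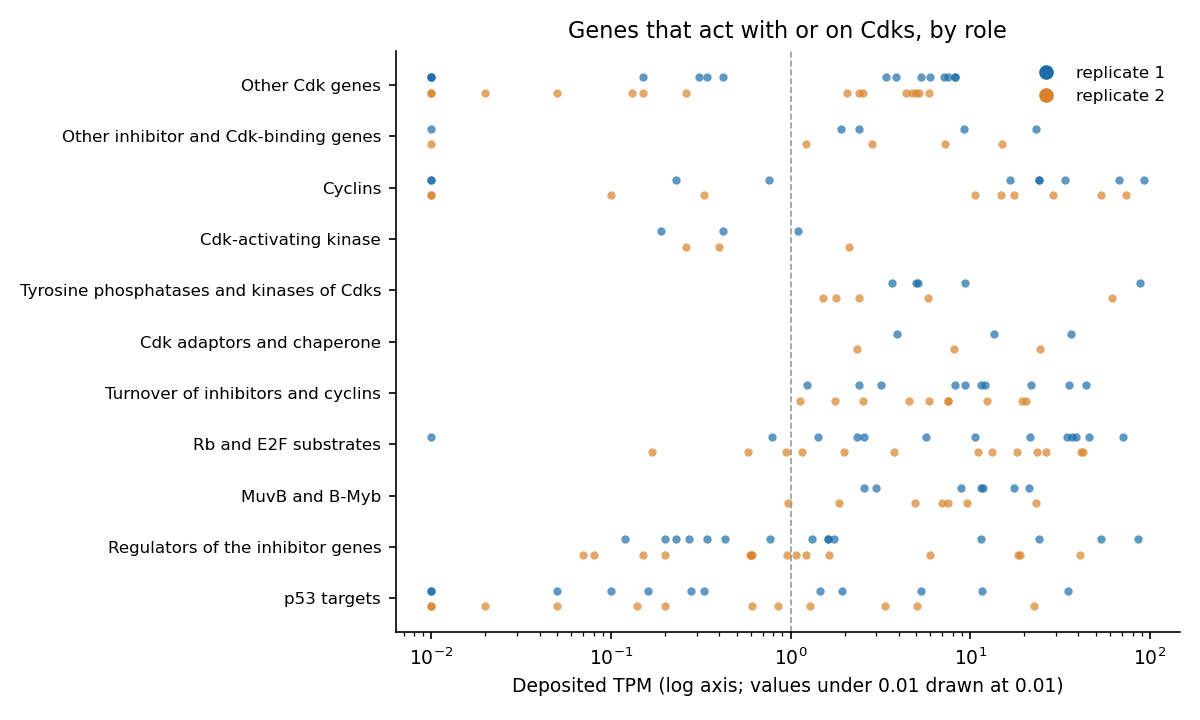
Deposited TPM on a log axis of genes that act with or on Cdks, 1 row per role, with a point for each gene in replicates 1 and 2; the dashed line marks 1 TPM and values under 0.01 are drawn at 0.01. Cyclins split into 6 genes above 10 TPM and 4 below 1 TPM in both libraries.

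Genes that switch the kinases on and off by phosphorylation were read in part. Of the Cdk-activating kinase, all 3 genes reached 1 in each library with TPM set relative to the sum of nuclear protein-coding genes. By deposited TPM, Cdk7 stood at 0.42 and 0.26, Mnat1 at 0.19 and 0.40 and Ccnh at 1.10 and 2.11. Thus 1 of 3 reached 1 TPM in both, against 23.9% of nuclear protein-coding genes. All 5 genes that act on the inhibitory tyrosine did: the phosphatases Cdc25b (88.4 and 61.4 TPM, of which 33.2 and 22.1 on coding transcripts), Cdc25c (9.37 and 5.82) and Cdc25a (3.66 and 1.52), and the kinases Pkmyt1 (5.11 and 1.79) and Wee1 (5.00 and 2.39). The adaptors Cks2 (36.4 and 24.4 TPM) and Cks1b (13.6 and 8.11) and the chaperone partner Cdc37 (3.90 and 2.33) were all above 1 TPM. Of other genes whose products bind Cdks or inhibitors, the phosphatase gene Cdkn3 stood at 23.1 and 15.0 TPM, Cdk2ap1 at 9.22 and 7.22, Cdk2ap2 at 2.39 and 2.85 and Cdkn2aip at 1.91 and 1.21. Among 15 other Cdk genes found, 8 reached 1 TPM in both libraries, against 23.9% of nuclear protein-coding genes, and none reached 10, against 4.79%. They were led by Cdk17, Cdk12, Cdk16 and Cdk11b at means of 7.02, 6.72, 6.12 and 5.78 TPM, with Cdk15 and Cdk18 lowest.

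For the lists that follow, the shares of nuclear protein-coding genes at 1 TPM in each library were 23.9%, and 20.8% on coding transcripts. Downstream and upstream of the members, 10 of 13 Rb and E2F genes reached 1 TPM in each library. The cofactor Tfdp2 led at 70.8 and 42.2 TPM, then the retinoblastoma gene Rb1 at 46.0 and 41.4, E2f8 at 37.0 and 26.5 and E2f2 at 38.6 and 23.4, with E2f3 and E2f5 lowest. Of 7 genes of the MuvB complex and its partners, which act at CHR sites, 6 reached 1 TPM in both, and 5 on coding transcripts. By gene TPM Rbbp4, Mybl2, Foxm1 and Lin9 led and Lin37 and Lin52 were lowest, but the coding transcripts of Lin9 were at 0 and 0.79 TPM. All 10 turnover genes reached 1 TPM in both, and 9 on coding transcripts. By gene TPM Cul4a, Fzr1, Cdc20 and Ddb1 led, with Cul4b and Fbxw7 lowest; on coding transcripts Cdc20 and Fzr1, at means of 13.9 and 13.4 TPM, were above Cul4a at 10.9. Among 15 regulators of the inhibitor genes, 14 reached 1 with TPM set relative to nuclear protein-coding genes, and 6 reached 1 deposited TPM in both. The Polycomb gene Ezh2 was highest at 85.7 and 40.6 TPM, of which 19.5 and 15.0 on coding transcripts, then Klf1 at 53.4 and 18.9, Foxo3 at 24.1 and 18.3 and Gfi1b at 11.5 and 5.99, with Ring1 and Foxo1 lowest. Beside the low Cdkn1a, 4 of 12 other p53 targets reached 1 TPM in each library, against the 23.9% above, so the count says little about them. These 4 were Btg2 at 34.9 and 22.7 TPM, Mdm2 at 11.6 and 5.04, Trp53inp1 at 5.32 and 3.37 and Ccng1 at 1.94 and 1.28. With TPM set relative to nuclear protein-coding genes, 7 of the 12 reached 1. Phlda3 and Eda2r had 0 counts.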

How the data were processed

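The 2 libraries came as gene and transcript tables, 1 pair per library, made by the authors on mm10 with GENCODE M4, per the notes deposited with them. Which tool was used is not given in the sources used here. Per library, the authors' deposited tables hold expected counts, TPM (scaled to a fixed total after division by effective length), posterior estimates, bounds of a TPM credibility interval (a signal in TPM, whose probability the deposited notes used here do not give) and transcript shares in percent. A short transcript gains TPM per read, so reads shared with a longer one weigh more once assigned to it.

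Gene names, transcript classes and structures came from GENCODE M21 (42462 of 43346 rows matched), whose transcripts can differ from M4. Counts were rounded and scaled by TMM (edgeR 4.0.16; prior count 0.5), with DESeq2 1.42.0 size factors as an alternative. Scripts ran in R and Python, and the ratio step was tested on simulated data. All 10 members were described; every gene was named from role lists of 5 or fewer genes and from the cyclins, the 4 highest and 2 lowest by mean TPM from longer lists, and the 2 highest from marker lists. Cdk3 was not found by symbol. Members and lists were chosen with earlier results of these data known. Protein sequences were not used here. No test was run. Alternatives covered the TPM estimate, its scale, length, thresholds, count filters and each library alone.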

Additional observations from a re-analysis of the deposited data

How the results depend on the processing

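No paired analysis was possible because there is 1 group. Depth limits what can be said of Cdkn1a, Cdkn1c and Cdkn2a, which had 0 counts in at least 1 library. Where a value moved, the cause was not tested. Members that reached 1 TPM in each library, 6, became 3 at 10 TPM, and pathway genes, 63, became 38 at 5 TPM. They became 7 and 83 with TPM set relative to the sum of nuclear protein-coding genes. The share of all such genes that reached 1 on that scale was not computed. Without length correction, which sets counts of long and short genes side by side, the log2 ratio of INK4 over CIP/KIP went from 1.88 to 0.50 and that of Cdk1 + Cdk2 over CIP/KIP from 2.50 to 0.41. Settings added after the data were seen gave -4.25 (coding transcripts alone) and -3.41 (effective length of 1 coding transcript) for Cdk4 + Cdk6 over INK4, against -2.39, and 1.04 and 1.18 for Cdk1 + Cdk2 over CIP/KIP. The effective length of 1 coding transcript reversed Cdkn2c over Cdkn2d, from 0.20 to -0.28. Genes at least 2-fold apart between the libraries, 2192, numbered 4273 at a mean count of at least 10, 1395 at 100, 6525 with no filter and 3835 by deposited TPM ratio, which holds the shift of scale. The coding share of Cdk1, a mean of 31.0% of TPM, was 73.2% of counts, and that of Cdk4 went from 17.4% to 45.8%. Of the single-gene, gene-pair and list values, 173 were called the same under the planned settings and 51 moved. Levels, ratios within a library and transcript shares were judged by their SD, list counts by a fold limit, and replicate ratios by counting error. Leaving out 1 library could not move a level, ratio or share, since either library alone lies within the SD by construction. Such cases are among the 173 and say nothing of stability. Other calls of moved were fixed in advance too. Levels by rescaled TPM, or by counts over length in kilobases, stand on another scale than the SD they were judged by. Most of them were thus called moved. Cdkn1c and Cdkn2a, whose SD was 0, moved at posterior means of 0.01 and 0.02 TPM. These are among the 51 and say nothing of instability. The log2 ratios of replicate 1 over 2 kept their sign for 7 of 7 members with DESeq2 size factors, both prior counts, TMM over nuclear protein-coding genes and rescaled TPM, and for 3 of 7 by deposited TPM, where Cdk1, Cdk2 and Cdkn2d went from -0.34, -0.40 and -0.29 to 0.71, 0.20 and 0.35, and Cdkn2c from -0.00 to 0.57. For Cdk4 over Cdk6 the log2 ratio of 2.68 became 0.06 on coding transcripts and 1.49 by the effective length of 1 coding transcript.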
